A study of Mus musculus with 12 samples.

Results

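Poly(A) RNA of the mouse retinal pigment epithelium (RPE) was sequenced, and the genes of the voltage-gated calcium and sodium channels, the ClC and anoctamin chloride channel families and the transient receptor potential (TRP) channels are described here. They were chosen by name, as every row of the deposited table whose symbol begins with Cacna, Cacnb, Cacng, Scn, Clcn, Ano, Trpa, Trpc, Trpm or Trpv, a number or letter of the family following, and Trpm1 and Trpm3 were left out. This gave 54 of the 13942 genes in the table. The groups were P5 (postnatal day 5) libraries labelled Sox9 cKO, P5 WT libraries, E15.5 (embryonic, before birth) libraries labelled Sox9 cKO and E15.5 WT libraries, with 3 libraries in each of the 4 groups, all from mice of the C57BL/6J strain. A cKO is a conditional knockout, here of the transcription factor gene Sox9. The sources used here do not give the Cre line, the deleted exons or the controls' alleles. Nor do they give the number of animals behind a library or the way RPE was separated from its neighbours. Values are gene counts that were quantile-normalised by the submitters, with everything under 50 set to 50, so a value of 50 means a level at or below that floor.

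The RPE is the pigmented cell layer behind the photoreceptors, and its channels move ions and water between retina and choroid, shape its calcium signals and acidify its endosomes, lysosomes and melanosomes. Many voltage-gated calcium channels, though not all, join a pore subunit (Cacna1) to alpha2delta (Cacna2d) and beta (Cacnb) subunits. Voltage-gated sodium channels join a pore subunit to beta subunits (Scn2b and Scn3b among them). ClC proteins are chloride channels of the cell surface or chloride and proton exchangers of endosomes and lysosomes, anoctamins are chloride channels gated by calcium or lipid scramblases, and TRP channels admit cations in response to heat, swelling, lipids or calcium.

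Before the channel genes, the libraries themselves need description. Sox9 did not check the labels at P5: its values were 2136, 2384 and 2928 in the P5 libraries labelled cKO and 964, 1500 and 1111 in the P5 WT libraries, a log2 fold change of 1.07 ± 0.17 (SE; limma adjusted p = 0.0316) against the direction of a deletion, and at E15.5 the log2 fold change was -0.05 ± 0.17. Reads from exons outside a deleted part would still be counted, so the libraries are called by their labels throughout. Of 14 RPE markers tested, 12 were higher at P5 in both genotypes. Between the genotypes 1 of the 14 was called lower in libraries labelled cKO at E15.5 and 1 at P5, with 13 called neither way at each age. Rpe65 had 50, 50 and 50 in the P5 libraries labelled cKO and 564, 479 and 178 in P5 WT. Ttr had 110, 89.1 and 85.3 in the E15.5 libraries labelled cKO and 1602, 1473 and 1454 in E15.5 WT. The mean log2 value of 18 photoreceptor markers was 7.30, 10.9 and 9.88 in the P5 libraries labelled cKO and 7.29, 8.68 and 11.8 in the P5 WT libraries, while at E15.5 it lay at the floor, between 5.67 and 5.72. Skeletal muscle markers, from 9.26 to 11.7, and lens markers, from 5.79 to 9.13, also varied between the P5 libraries. Between E15.5 and P5, 8 of 11 endothelial, 6 of 7 glial and 3 of 7 Schwann cell and melanocyte markers rose in libraries labelled cKO. In WT 11, 5 and 5 rose. Of 14 lens markers tested, 12 rose in libraries labelled cKO and 0 in WT. Of 14 skeletal muscle markers, 2 rose and 3 fell in libraries labelled cKO, and 1 rose and 5 fell in WT. The part of all these markers in the changes with age was not tested. Channel genes also varied more between P5 replicates than other genes did. The median SD of their log2 values over replicates was 0.396 in the P5 libraries labelled cKO, where it was 0.232 over all genes tested, and 0.526 in P5 WT, where it was 0.317. At E15.5 it was 0.115 in the libraries labelled cKO (all genes, 0.116) and 0.116 in WT (all genes, 0.105). In bulk samples fewer cells of a type and less RNA per cell cannot be told apart.

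Most channel genes were detected. Of the 54, 35 were above the floor in all 12 libraries, and 51 were above it in at least 3 libraries and entered the test; among the 3 that did not were the skeletal muscle sodium channel gene Scn4a and the AMPA receptor regulator gene Cacng5. All 3 libraries of a group were at the floor for 2 channel genes in P5 libraries labelled cKO, 3 in P5 WT, 9 in E15.5 libraries labelled cKO and 12 in E15.5 WT. To compare levels between genes, values were divided by the length of the merged exons. The mean over 12 libraries per kb of exon was highest for Cacng7, at 643. Among the leading members of other families named here it was next highest for the calcium channel beta subunit gene Cacnb3 at 315, the T-type calcium channel gene Cacna1g at 233 and Trpc4ap at 226. It was lower for Ano6 at 141, the magnesium-permeable channel kinase gene Trpm7 at 94.2, Cacna2d1 at 70.2, Trpv4 at 66.5 and Scn8a at 14.2. Sodium channel pore genes were thus the lowest of the families by their leading member. Trpc4ap, matched by its name, encodes a protein associated with TRPC4 and is no channel.

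**Figure D1:**
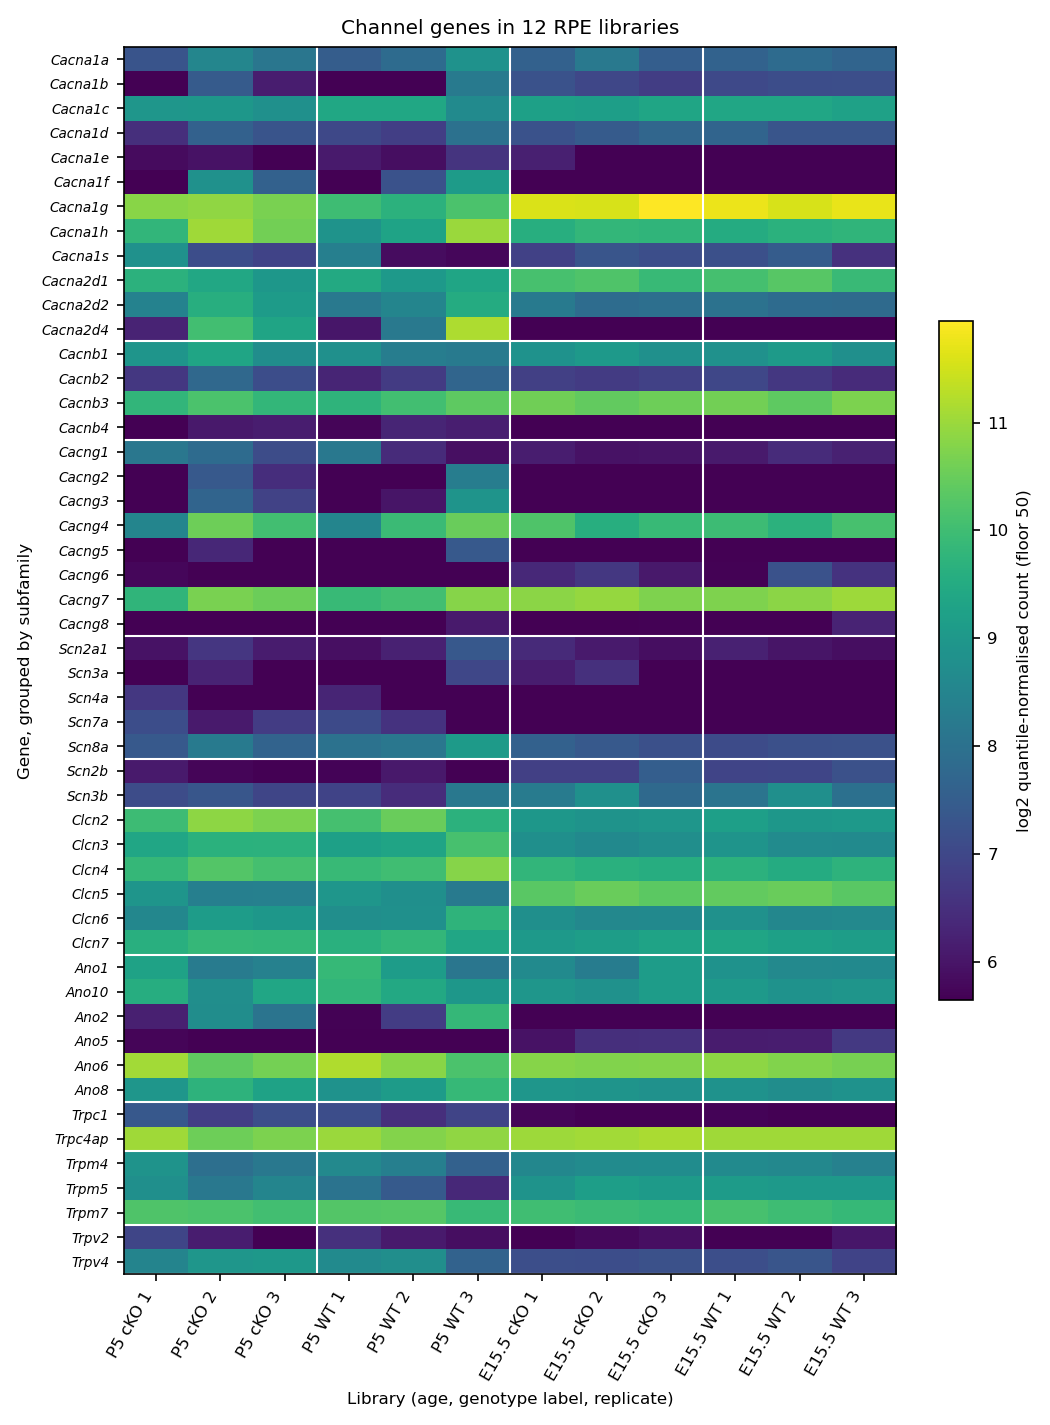
Each row is 1 of 50 channel genes, grouped by subfamily, each column 1 of the 12 libraries, and colour gives the log2 quantile-normalised count, whose lowest value is the floor of 50. The largest steps run between the P5 and the E15.5 libraries, and rows such as Cacna2d4 and Ano2 differ among P5 libraries with the same label.

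The first question of the design is how expression changed from the embryonic to the postnatal RPE, and channel genes changed in both directions in both genotypes. Between E15.5 and P5 in WT libraries 9 channel genes rose (17.6% of the 51 tested, against 15% of all 13523 genes tested) and 7 fell (13.7%, against 23.2%), at an adjusted p under 0.05. Between E15.5 and P5 in libraries labelled cKO 10 rose (19.6%, against 17.6% of all genes) and 7 fell (13.7%, against 26.1%). The shares of rises lay near the background, and the shares of falls below it. The median log2 fold change over the channel genes was 0.23 in the libraries labelled cKO and 0.37 in WT, where the medians over all genes were -0.08 and -0.07.

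The ages gave much the same genes in both genotypes. The fold changes of the genotypes share no library in these comparisons. The spread of each gene was estimated over all libraries together, so the calls in both genotypes use the same spread and are not independent. Among the 7 genes that rose in both were Trpv4, Trpc1, Clcn2, Clcn3 and Clcn7, and the 7 are 70% of the 10 rises in libraries labelled cKO and 77.78% of the 9 in WT. The 6 that fell in both were Clcn5, Cacna1g, Scn2b, Cacna2d1, Ano5 and Cacnb3, 85.71% of the falls in each. Cacna2d2, Cacng1 and Scn7a rose and Scn3b fell past the threshold in libraries labelled cKO alone, and Clcn4 and Scn8a rose and Trpm5 fell past it in WT alone; for none of these 7 was the difference between the genotypes called (interaction test, below). The sign of the fold change was the same in 46 of 51 genes. Neither this count nor the shares of shared calls were computed over all genes tested, so nothing particular to channel genes is read from them. The ages did not overlap for 14 channel genes that were higher and 12 that were lower at P5 in libraries labelled cKO (27.5% and 23.5%, against 23.8% and 34.1% of all genes). In WT this held for 16 and 9 (31.4% and 17.6%, against 19.3% and 29.4% of all genes). Leaving out P5 WT replicate 3, the library richest in photoreceptor transcripts, gave 16 rises and 10 falls in libraries labelled cKO, and leaving out P5 cKO replicate 3 or E15.5 cKO replicate 2 gave 3 or 4 falls there. Without the 2 P5 libraries of highest photoreceptor signal (WT replicate 3 and cKO replicate 2) 13 rose and 10 fell in libraries labelled cKO, and 12 rose and 10 fell in WT. Counts over all genes moved likewise: without these 2 libraries 2964 rose and 4034 fell in libraries labelled cKO, against 2379 and 3526 with all libraries, and 3025 rose and 4034 fell in WT, against 2028 and 3143. Without P5 WT replicate 3 all genes gave 3065 rises and 4212 falls in libraries labelled cKO, and without P5 cKO replicate 3 or E15.5 cKO replicate 2 they gave 2641 and 2686 falls.

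**Figure D2:**
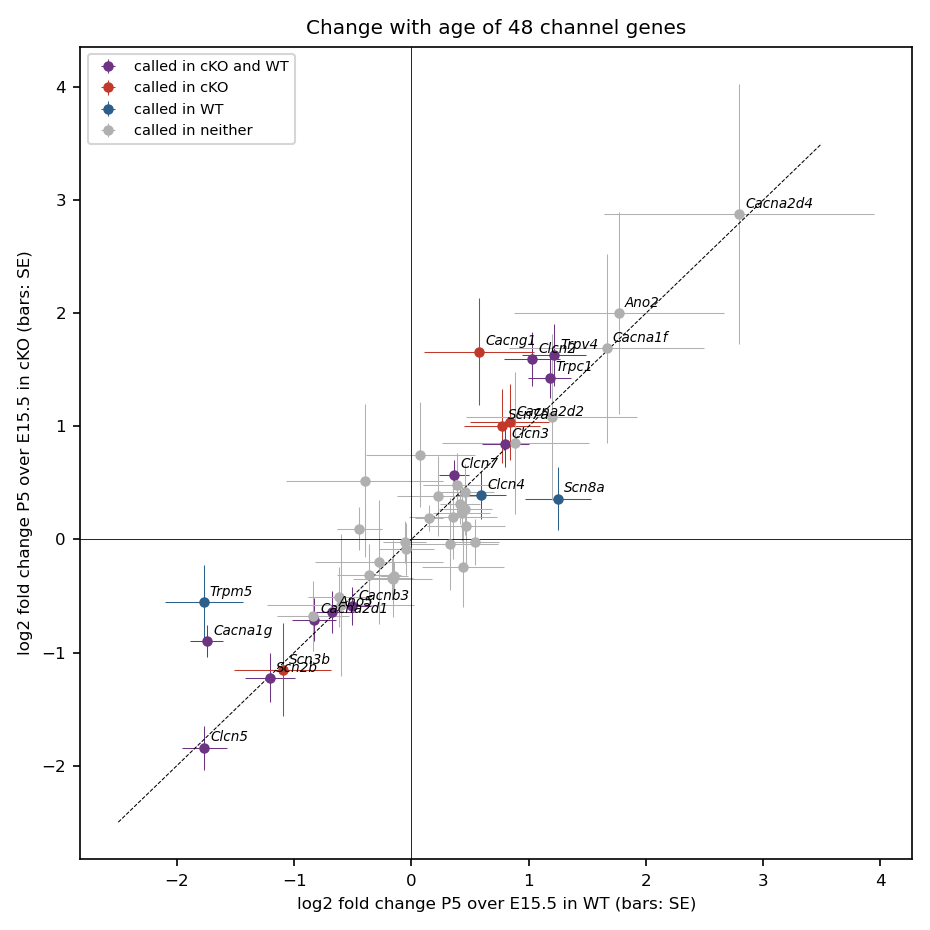
Each point is 1 of 48 channel genes, with the log2 fold change P5 over E15.5 in WT on the x axis and in libraries labelled cKO on the y axis, and bars give the SE of each. The 11 genes plotted that were called in both genotypes lie near the dashed line of equal change, except that Cacna1g lies above it, and Cacna2d4, Ano2 and Cacna1f have fold changes as large but with SE too wide to be called.

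Of the 6 ClC genes described here, 3 rose and 1 fell with age in libraries labelled cKO, and 4 rose and 1 fell in WT. Clcn2 encodes a chloride channel of the cell surface whose loss in mice leads to degeneration of photoreceptors. Its values were 1006, 1887 and 1669 in the P5 libraries labelled cKO and 1094, 1453 and 827 in the P5 WT libraries. At E15.5 they were 500.3, 468 and 492 in the E15.5 libraries labelled cKO and 592, 501 and 520.1 in the E15.5 WT libraries. Every P5 library lay above every E15.5 library, and the log2 fold change was 1.59 ± 0.24 (SE; adjusted p = 0.000489) in libraries labelled cKO and 1.03 ± 0.24 (adjusted p = 0.00674) in WT. The call of Clcn2 in libraries labelled cKO was lost under 1 of 27 alternatives (limma adjusted p = 0.0694). Its exons share 167 bases with exons of Fam131a and Polr2h on the opposite strand. The strand setting of the counting is not given, so reads from there cannot be told apart.

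Clcn7 encodes the chloride and proton exchanger of lysosomes, which needs the partner protein Ostm1. Its P5 values were 781, 912 and 899 in the P5 libraries labelled cKO and 799, 904 and 662 in the P5 WT libraries. At E15.5 the gene had 536, 572 and 633 in the E15.5 libraries labelled cKO and 648, 602 and 572 in the E15.5 WT libraries. The rise was small, with a log2 fold change of 0.57 ± 0.13 in libraries labelled cKO (adjusted p = 0.00504) and 0.37 ± 0.13 in WT (adjusted p = 0.0457), and the groups did not overlap in either genotype. The WT call was near the threshold and was lost on leaving out any of 10 single libraries, with adjusted p up to 0.152. Of 27 alternatives in all, 16 lost the WT call, and 1 lost the call in libraries labelled cKO (limma adjusted p = 0.353). Ostm1 itself rose by more, to 706 ± 220.4 in P5 libraries labelled cKO, against 181 ± 21.5 in E15.5 libraries with that label (SD, n = 3 each), a log2 fold change of 1.91, and to 866 ± 291 in P5 WT, against 249 ± 31.0 in E15.5 WT, a log2 fold change of 1.74.

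Of the exchangers of endosomes, Clcn3 and Clcn4 were higher at P5, while Clcn5 was lower. Clcn3 had 664, 807 and 829 in the P5 libraries labelled cKO and 603, 644 and 1098 in the P5 WT libraries, and at E15.5 443, 395 and 436 in the E15.5 libraries labelled cKO and 476, 413 and 407 in the E15.5 WT libraries. The log2 fold change of Clcn3 was 0.85 ± 0.20 in libraries labelled cKO (adjusted p = 0.00688) and 0.80 ± 0.20 in WT (adjusted p = 0.0103), with no overlap of the ages. With the photoreceptor markers as a term in the model it was 0.27 (adjusted p = 0.190) in libraries labelled cKO and 0.25 (adjusted p = 0.225) in WT. These markers lay at the floor at E15.5, so the term separates the ages as well as the P5 libraries. Changes with age under it, here and below, extrapolate and cannot show where the transcripts came from. For Clcn4 the values were 919.9, 1219 and 1090.2 in the P5 libraries labelled cKO and 946, 1036 and 1794 in the P5 WT libraries, and at E15.5 891, 796 and 761 in the E15.5 libraries labelled cKO and 831, 732 and 840.5 in the E15.5 WT libraries. P5 WT replicate 3 was the highest of all 12, and the rise of Clcn4 was called in WT (log2 fold change 0.59 ± 0.21, adjusted p = 0.0467) but not in libraries labelled cKO (0.39 ± 0.21, adjusted p = 0.156). Without P5 WT replicate 3 the WT value of Clcn4 was 0.31 (adjusted p = 0.0749), and with the photoreceptor term -0.02 (adjusted p = 0.929). The WT call was also lost without P5 cKO replicate 2 or 3 or any 1 of the 6 E15.5 libraries, with adjusted p from 0.0508 to 0.136.

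Clcn5, which takes part in endocytosis in the kidney tubule, was the channel gene that fell most in libraries labelled cKO. Its values were 488, 327 and 333 in the P5 libraries labelled cKO and 492, 443 and 302 in the P5 WT libraries. Its E15.5 values were 1287, 1459 and 1312 in the E15.5 libraries labelled cKO and 1384, 1442 and 1299.6 in the E15.5 WT libraries. The ages were far apart in both genotypes, with a log2 fold change of -1.84 ± 0.19 in libraries labelled cKO (adjusted p = 6.52e-05) and -1.76 ± 0.19 in WT (adjusted p = 9.91e-05), and the call held in all alternatives tried in both. Clcn6, the exchanger of late endosomes, was not called at either age, with means between 407 and 577.

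The promoters of 4 exchanger genes are shown because Clcn5 fell and Clcn7 rose with age in both genotypes, while Clcn4 was called in WT alone and Clcn6 in neither, and because their windows hold matches to the motifs searched. Clcn7, Clcn6 and Clcn4 hold the letters CACGTG or CATGTG (searched on both strands), the cores of sites bound by MITF and TFEB, factors of melanosome and lysosome genes. Clcn5 holds neither in the window shown but has AACAAT, a core of sites bound by SOX proteins. Capitals mark these letters. Each is the 250 bases before a RefSeq transcript start (GRCm38.p6), 5′ to 3′ on the strand of the gene.
Clcn7 promoter, chr17:25133141-25133390, plus strand: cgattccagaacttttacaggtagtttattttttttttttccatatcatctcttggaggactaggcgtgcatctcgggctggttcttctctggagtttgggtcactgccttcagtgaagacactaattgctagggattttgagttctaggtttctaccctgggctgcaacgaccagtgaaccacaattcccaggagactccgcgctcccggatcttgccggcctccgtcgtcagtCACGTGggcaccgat
Clcn6 promoter, chr4:148038814-148039063, minus strand: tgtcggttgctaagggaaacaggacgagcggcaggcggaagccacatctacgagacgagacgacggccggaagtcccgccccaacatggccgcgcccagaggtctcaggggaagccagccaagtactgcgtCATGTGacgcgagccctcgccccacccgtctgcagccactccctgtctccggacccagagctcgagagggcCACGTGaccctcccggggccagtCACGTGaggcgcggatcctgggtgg
Clcn4 promoter, chr7:7299558-7299807, minus strand: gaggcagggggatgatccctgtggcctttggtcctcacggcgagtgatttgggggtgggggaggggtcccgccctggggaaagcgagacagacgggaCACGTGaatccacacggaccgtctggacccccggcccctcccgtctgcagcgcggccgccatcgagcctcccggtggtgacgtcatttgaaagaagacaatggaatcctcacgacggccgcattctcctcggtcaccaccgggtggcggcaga
Clcn5 promoter, chrX:7319359-7319608, minus strand: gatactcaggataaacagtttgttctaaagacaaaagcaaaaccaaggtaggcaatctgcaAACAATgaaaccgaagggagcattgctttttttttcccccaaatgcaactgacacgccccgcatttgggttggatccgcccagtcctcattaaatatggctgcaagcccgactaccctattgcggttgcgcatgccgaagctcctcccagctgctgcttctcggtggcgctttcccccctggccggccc
In these windows CACGTG begins 15 bases before the start of Clcn7, 48 and 25 bases before that of Clcn6 and 153 bases before that of Clcn4. CATGTG begins 119 bases before the start of Clcn6, and AACAAT 189 bases before that of Clcn5. A second RefSeq start of Clcn7 has CATGTG 41 bases before it, and a second start of Clcn5 has it 37 bases before. A second window of Clcn4 and both windows of Clcn3, the other exchanger gene that rose in both genotypes, hold none of the 4 motifs. Of the 54 channel genes 39 had a promoter in the RefSeq table, in 57 windows. CACGTG was in 7.02% of these windows and in 6.02% of all 32851, and CATGTG in 8.77% and 12.3%. GGATTA, a core bound by OTX2, was in 7.02% and 6.25%, and AACAAT in 7.02% and 9.42%. A match is a description of letters and not of binding.

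Anoctamin genes differed in what they did. Ano6, the lipid scramblase gene and the highest of the family per kb, had 2133, 1346 and 1576 in the P5 libraries labelled cKO and 2327, 1803 and 1145 in the P5 WT libraries. At E15.5 Ano6 had 1782, 1716 and 1760.2 in the E15.5 libraries labelled cKO and 1888, 1735 and 1604 in the E15.5 WT libraries. Its group means were alike (log2 fold change -0.08 in libraries labelled cKO and -0.04 in WT), but its P5 values in each genotype were lower the higher the photoreceptor markers were. Ano1, a chloride channel gated by calcium, had 624, 305 and 339.6 in the P5 libraries labelled cKO and 925, 562 and 278 in the P5 WT libraries, with the same order, and at E15.5 406, 313 and 557 in the E15.5 libraries labelled cKO and 461, 394 and 401 in the E15.5 WT libraries, and was not called (adjusted p = 0.942 in libraries labelled cKO and 0.539 in WT). With the photoreceptor term the change with age became 1.22 (adjusted p = 0.00271) in libraries labelled cKO and 1.55 (adjusted p = 0.000625) in WT for Ano1, and 0.68 (adjusted p = 0.000555) and 0.69 (adjusted p = 0.000483) for Ano6. The term separates the ages as well as the P5 libraries, since the markers lay at the floor at E15.5, so these values extrapolate.

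Ano5, a muscle anoctamin, fell to the floor: it had 53.0, 50 and 50 in the P5 libraries labelled cKO and 50, 50 and 50 in the P5 WT libraries, and at E15.5 61.6, 90.8 and 92.0 in the E15.5 libraries labelled cKO and 70.3, 71.3 and 103 in the E15.5 WT libraries. Its log2 fold change of -0.64 in libraries labelled cKO (adjusted p = 0.0183) and -0.67 in WT (adjusted p = 0.0168) is limited by the floor, and the call was lost without E15.5 WT replicate 3 in WT (adjusted p = 0.0648) and without P5 cKO replicate 3 or E15.5 cKO replicates 2 or 3 in libraries labelled cKO (adjusted p = 0.0557, 0.0686 and 0.0691). Of 26 alternatives in all, 4 lost the call in WT and 7 in libraries labelled cKO (limma adjusted p up to 0.125 and 0.303). Ano2, the olfactory and photoreceptor terminal channel, lay at the floor throughout E15.5 and had 73.3, 423 and 270 in the P5 libraries labelled cKO and 51.3, 108 and 924 in the P5 WT libraries. It was not called, with an SE of 0.90, but its rise passed in libraries labelled cKO without P5 cKO replicate 1 (log2 fold change 2.73, adjusted p = 0.0342) or P5 WT replicate 3 (adjusted p = 0.00881), and in WT without P5 WT replicate 1 (2.64, adjusted p = 0.0345). Ano8 and Ano10 were not called either.

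Among pore subunits of calcium channels, Cacna1g (chr11:94408391-94474198 in GRCm38, minus strand) was the highest and the only 1 of 9 to change with age. It encodes a T-type channel, which opens at low voltage. Its values were 1806, 1922 and 1649 in the P5 libraries labelled cKO and 1009.7, 825 and 1141 in the P5 WT libraries. Those at E15.5 were 3098, 3033 and 3941 in the E15.5 libraries labelled cKO and 3481, 3020.3 and 3411 in the E15.5 WT libraries. All P5 libraries were below all E15.5 libraries, by a log2 fold change of -0.90 ± 0.14 in libraries labelled cKO (adjusted p = 0.000666) and -1.75 ± 0.14 in WT (adjusted p = 1.46e-05). The fall in libraries labelled cKO lost its call under 1 of 27 alternatives (limma adjusted p = 0.0907). The other T-type gene, Cacna1h, had 883, 2100.4 and 1557 in the P5 libraries labelled cKO and 470.1, 632 and 2044 in the P5 WT libraries, with the 3 highest values in the libraries richest in photoreceptor markers, and 738 to 900.2 at E15.5, and was not called. Without P5 WT replicate 3, which enters through the shared spread, its rise in libraries labelled cKO passed (log2 fold change 0.75, adjusted p = 0.0327).

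The L-type pore genes Cacna1c and Cacna1d, of which Cacna1d encodes a channel described in RPE, did not pass the test. Cacna1c had 494, 504 and 449 in the P5 libraries labelled cKO and 678, 674 and 407 in the P5 WT libraries, and at E15.5 574 to 659. Its log2 fold change with age was -0.34 ± 0.18 in libraries labelled cKO (adjusted p = 0.144), where the ages did not overlap, and -0.17 ± 0.18 in WT (adjusted p = 0.477). Cacna1d was lower, with 89.7, 195 and 154 in the P5 libraries labelled cKO and 128, 113 and 253 in the P5 WT libraries and 151 to 212 at E15.5, and the ages overlapped. Cacna1f, the L-type channel of photoreceptor terminals, lay at the floor throughout E15.5 and in replicate 1 of both P5 groups, and otherwise had 452 and 192 in P5 libraries labelled cKO and 149 and 551 in P5 WT. Its rise passed the test only with replicate 1 of the P5 group left out, among the single libraries of that genotype (adjusted p = 0.0228 in libraries labelled cKO and 0.0303 in WT). Cacna1a, Cacna1b and Cacna1e, pore genes of neurons, and Cacna1s, the pore gene of skeletal muscle, were not called.

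**Figure D3:**
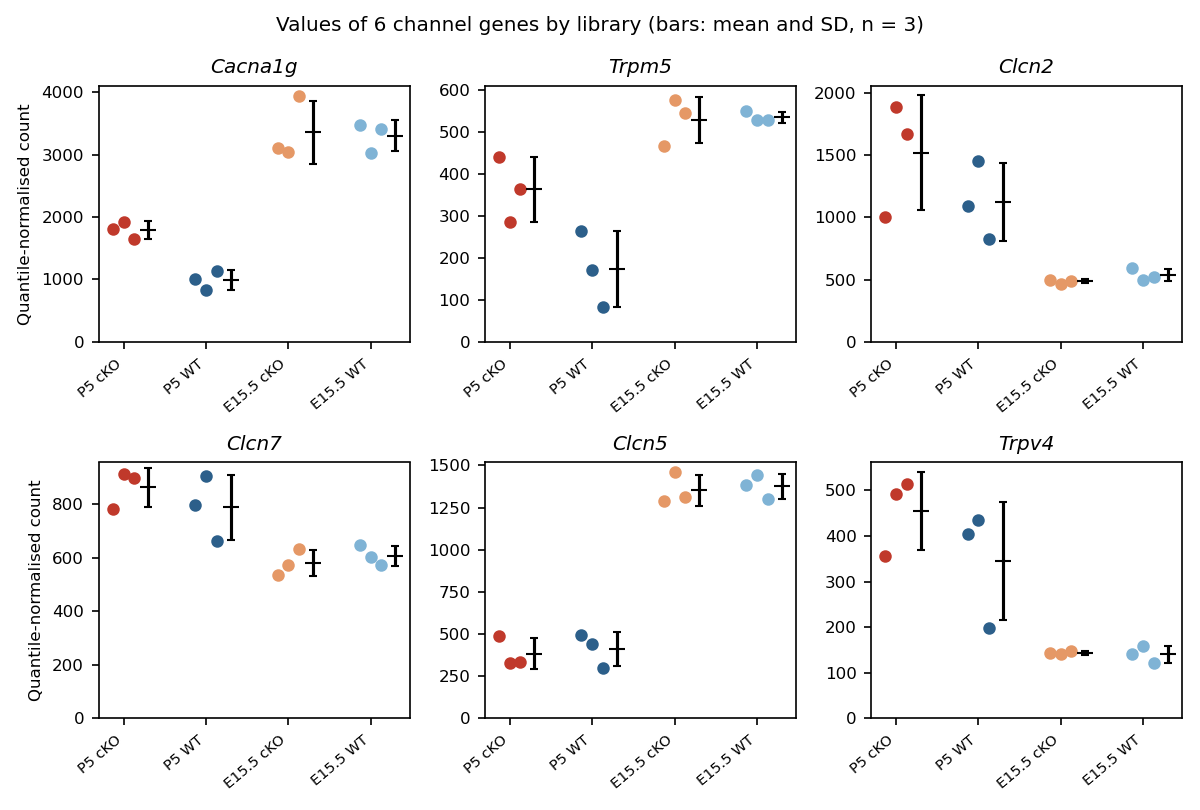
Each panel gives 1 gene: points are the quantile-normalised counts of the 3 libraries of each group, in replicate order, and bars their mean and SD (n = 3), on axes that start at 0. Cacna1g, Trpm5 and Clcn5 are higher at E15.5, Clcn2, Trpv4 and Clcn7 at P5, and the 3 P5 points labelled cKO lie above the 3 WT points for Cacna1g and Trpm5.

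The calcium channel subunits that accompany the pore mostly fell or did not pass the test. Cacna2d1, which carries pores to the membrane and binds gabapentin, had 826, 681 and 503 in the P5 libraries labelled cKO and 708, 519 and 649.9 in the P5 WT libraries. Its E15.5 values were 1111, 1182 and 941 in the E15.5 libraries labelled cKO and 1092, 1270.3 and 969.6 in the E15.5 WT libraries, all above those at P5, and the log2 fold change was -0.71 ± 0.19 in libraries labelled cKO (adjusted p = 0.0125) and -0.83 ± 0.19 in WT (adjusted p = 0.00643). Without P5 cKO replicate 3 or E15.5 cKO replicate 2 the call of Cacna2d1 in libraries labelled cKO was narrowly lost (adjusted p = 0.0502 and 0.0508). Of 27 alternatives in all, 6 lost it there, with limma adjusted p up to 0.394. In WT 2 of 27 lost the call of Cacna2d1, with adjusted p up to 0.0716. Cacna2d2 had 349, 767 and 552 in the P5 libraries labelled cKO and 294, 367 and 728 in the P5 WT libraries and 228 to 296 at E15.5, and its rise was called in libraries labelled cKO (log2 fold change 1.04 ± 0.34, adjusted p = 0.0283) but not in WT (0.84 ± 0.34, adjusted p = 0.071). The call was lost without P5 cKO replicate 2 or 3 or E15.5 cKO replicate 2 or 3 (adjusted p from 0.0769 to 0.105), and with the photoreceptor term the log2 fold change was -0.06 (adjusted p = 0.778). That term separates the ages, so the last value extrapolates. In WT Cacna2d2 passed without P5 cKO replicate 1 or P5 WT replicate 1 (adjusted p = 0.0440 and 0.0294).

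Cacnb3, a beta subunit gene, had 891, 1149 and 901 in the P5 libraries labelled cKO and 856, 1059 and 1334 in the P5 WT libraries. At E15.5 Cacnb3 had 1537, 1369 and 1491 in the E15.5 libraries labelled cKO and 1554, 1337 and 1664 in the E15.5 WT libraries. It fell by a log2 fold change of -0.59 ± 0.16 in libraries labelled cKO (adjusted p = 0.0148) and -0.50 ± 0.16 in WT (adjusted p = 0.033). In WT its highest P5 value, 1334 in replicate 3, lay close to its lowest E15.5 value of 1337, and the call was lost without P5 WT replicate 1 or 2 or without E15.5 WT replicate 1 or 3 (adjusted p from 0.0748 to 0.115), and in libraries labelled cKO without P5 cKO replicate 3 (adjusted p = 0.0566). Of 27 alternatives in all, 8 lost the call in WT and 3 in libraries labelled cKO (limma adjusted p up to 0.183 and 0.498). Cacnb1, the beta subunit gene of muscle, and Cacnb2 and Cacnb4 were not called.

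The Cacng genes hold the muscle gamma subunit, Cacng1, and regulators of AMPA receptors. Cacng7, of the second kind, was high at both ages, with 865, 1648 and 1473 in the P5 libraries labelled cKO and 944, 1053 and 1786 in the P5 WT libraries and, at E15.5, 1834, 1962 and 1680.5 in the E15.5 libraries labelled cKO and 1682, 1833 and 2074 in the E15.5 WT libraries. Its mean was lower at P5 but not called (adjusted p = 0.143 in libraries labelled cKO and 0.0895 in WT); without the 2 P5 libraries of highest photoreceptor signal the log2 fold change was -0.69 (adjusted p = 0.0162) in libraries labelled cKO and -0.90 (adjusted p = 0.00453) in WT. Cacng1 had 284, 229 and 139 in the P5 libraries labelled cKO and 287, 85.3 and 60.3 in the P5 WT libraries and 62.1 to 86.1 at E15.5, a rise called in libraries labelled cKO (log2 fold change 1.66 ± 0.47, adjusted p = 0.0159) but not in WT (0.58 ± 0.47, adjusted p = 0.355). Its order over the P5 libraries nearly followed the skeletal muscle markers, whose mean log2 values were 11.7, 11.6 and 10.4 in P5 libraries labelled cKO and 11.5, 9.91 and 9.26 in P5 WT. A model with these markers as a term was among 26 alternatives for Cacng1. The call in libraries labelled cKO was kept in 25 of them, with limma adjusted p up to 0.235. Which alternative lost it is not given here. In WT the rise of Cacng1 was called in 2 of the 26, with adjusted p down to 0.00282. Over the 6 P5 libraries the correlation of its log2 values with the muscle markers was 0.986. What part the muscle markers had in the result was not otherwise tested. Cacng2 and Cacng3 lay at the floor throughout E15.5, and Cacng4, Cacng6 and Cacng8 were not called.

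Sodium channel beta subunits set the gating of the pore and join cells to each other. Scn2b fell in both genotypes and Scn3b in libraries labelled cKO. Scn2b had 68.1, 53.2 and 50 in the P5 libraries labelled cKO and 52.6, 67.8 and 50 in the P5 WT libraries, at or near the floor, and at E15.5 113, 114 and 183 in the E15.5 libraries labelled cKO and 122, 124 and 149 in the E15.5 WT libraries. Its log2 fold change was -1.22 ± 0.22 in libraries labelled cKO (adjusted p = 0.00126) and -1.20 ± 0.22 in WT (adjusted p = 0.00164). Scn3b had 137, 159.8 and 126 in the P5 libraries labelled cKO and 121, 86.8 and 286 in the P5 WT libraries, and at E15.5 306, 451 and 222 in the E15.5 libraries labelled cKO and 266, 443 and 252 in the E15.5 WT libraries. Its fall was called in libraries labelled cKO (log2 fold change -1.15 ± 0.41, adjusted p = 0.0427), but was lost without any 1 of 7 libraries (adjusted p from 0.0553 to 0.154), and not called in WT (-1.10 ± 0.41, adjusted p = 0.0571), where replicate 3 overlapped the embryonic values. Of 27 alternatives in all, 11 lost the call in libraries labelled cKO and 1 turned the sign (limma adjusted p up to 0.764). Without P5 WT replicate 3 the WT value of Scn3b was -1.59 (adjusted p = 0.00252).

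Pore genes of sodium channels were low. Scn8a, the widespread pore gene of neurons, had 170.1, 296 and 202 in the P5 libraries labelled cKO and 260.4, 281 and 537 in the P5 WT libraries, and at E15.5 195, 169 and 144 in the E15.5 libraries labelled cKO and 135, 145 and 148 in the E15.5 WT libraries. Its rise was called in WT (log2 fold change 1.25 ± 0.28, adjusted p = 0.00571) and not in libraries labelled cKO (0.36 ± 0.28, adjusted p = 0.321), where the lowest P5 value lay within the embryonic range. With the photoreceptor term, which separates the ages, the WT value of Scn8a was 0.46 (adjusted p = 0.0950), an extrapolation. Scn7a, a sodium sensor of glia and Schwann cells, some of whose markers also rose with age, lay at the floor throughout E15.5 and had 140.3, 68.4 and 109 in the P5 libraries labelled cKO and 133, 95.6 and 50 in the P5 WT libraries. Its rise was called in libraries labelled cKO (log2 fold change 1.01 ± 0.33, adjusted p = 0.0289), a value limited by the floor, but not in WT (adjusted p = 0.0854). The call was lost without P5 cKO replicate 1 or 3 or any 1 E15.5 library labelled cKO (adjusted p from 0.0682 to 0.0917), while in WT Scn7a passed without P5 WT replicate 3 (adjusted p = 0.00428). Of 25 alternatives in all, 7 lost the call in libraries labelled cKO (limma adjusted p up to 0.862), and 5 called the rise in WT. Scn2a1 and Scn3a were not called, and their highest values were 165 and 127.

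Of the TRP channels Trpv4 and Trpc1 rose in both genotypes and Trpm5 fell in WT. Trpv4, opened by swelling and warmth, had 356, 492 and 515 in the P5 libraries labelled cKO and 405, 434 and 197 in the P5 WT libraries. Its E15.5 values were 143, 140.3 and 149 in the E15.5 libraries labelled cKO and 142, 158 and 121 in the E15.5 WT libraries. All P5 libraries were higher, P5 WT replicate 3 the least so, and the log2 fold change was 1.63 ± 0.27 in libraries labelled cKO (adjusted p = 0.000941) and 1.22 ± 0.27 in WT (adjusted p = 0.0057). The call in libraries labelled cKO was lost under 1 of 27 alternatives (limma adjusted p = 0.139). Trpc1, a subunit of store and receptor operated channels, had 166, 113 and 143 in the P5 libraries labelled cKO and 140.3, 90.4 and 122 in the P5 WT libraries, while at E15.5 4 of 6 libraries were at the floor and the highest was at 53.2. Its log2 fold change of 1.43 ± 0.18 in libraries labelled cKO (adjusted p = 0.000192) and 1.18 ± 0.18 in WT (adjusted p = 0.000703) is limited by the floor.

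Trpm5, opened by calcium and known from taste cells, had 441, 286 and 365 in the P5 libraries labelled cKO and 264, 172 and 83.3 in the P5 WT libraries. At E15.5 it had 468, 575 and 545 in the E15.5 libraries labelled cKO and 550.1, 528 and 528 in the E15.5 WT libraries. The 3 P5 WT libraries were below all E15.5 WT libraries (log2 fold change -1.77 ± 0.33, adjusted p = 0.00215), and the P5 libraries labelled cKO lay in between, below the E15.5 libraries with that label without passing the test (-0.56 ± 0.33, adjusted p = 0.2). Exons of Trpm5 and Tssc4 share 220 bases on opposite strands. Trpm7 did not pass the test, with 946 to 1236 at P5 and 932 to 1098 at E15.5, and Trpc4ap likewise, with 1500.2 to 2105 and 2074 to 2281. Trpv2 and Trpm4 were not called, and the highest value of Trpv2 was 125.

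The second question of the design is what differs in the Sox9 cKO. At E15.5 no channel gene was called higher (0% of all genes were) or lower (0.00739% of all genes), by limma, and none of the 51 had an unadjusted p under 0.05. Of all 13523 genes only 49 had one, so its absence among the 51 says little about channel genes. Fold changes at E15.5 lay between -0.59 and 0.45 on the log2 scale. Clcn2 was the single channel gene whose groups did not overlap, with 500.3, 468 and 492 in libraries labelled cKO and 592, 501 and 520.1 in WT, a log2 fold change of -0.14 ± 0.24 (adjusted p = 1); among all genes 2.11% were apart and higher and 2.99% apart and lower. The exact permutation test of 3 libraries against 3 cannot go under p = 0.1, the value that each pair of groups without overlap gave.

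At P5, 1 channel gene was called higher in the libraries labelled cKO (1.96% of 51, against 0.200% of all genes) and none lower (0.0444% of all genes), and 4 had an unadjusted p under 0.05, as did 1039 of all 13523 genes, which is nearly the same share. The gene called was Cacna1g: its mean was 1792 ± 137 in the P5 libraries labelled cKO and 992 ± 159 in P5 WT (SD, n = 3 each), a log2 fold change of 0.86 ± 0.14 (SE; adjusted p = 0.0411), higher in 3 of 3 libraries. Since Sox9 itself went against the label in these libraries, the direction is that of the labels. Over the alternatives the adjusted p ran from 0.0106 to 0.918 and the log2 fold change from 0.74 to 1.15, so the direction kept but 18 of 27 alternatives lost the call. Leaving out P5 cKO replicate 2 or 3 gave adjusted p = 0.179 and 0.149, P5 WT replicate 1 or 2 gave 0.0713 and 0.0761, and leaving out any 1 of the 6 E15.5 libraries gave 0.0508 to 0.0929.

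The P5 libraries labelled cKO thus held a level of Cacna1g between those of P5 WT and of the embryonic RPE. The difference of the genotype effect between the ages was 0.85 ± 0.20 on the log2 scale and was not called (limma interaction test, adjusted p = 0.688). With marker levels as a term, the log2 fold change of Cacna1g at P5 was 0.86 for photoreceptor markers (adjusted p = 0.0106), 1.12 for lens markers (adjusted p = 0.0139) and 0.90 for skeletal muscle markers, with which the call was lost (adjusted p = 0.105). The comparisons P5 minus E15.5 and cKO minus WT share the P5 libraries, so the smaller fall of Cacna1g with age in libraries labelled cKO uses the same libraries as the difference at P5.

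Trpm5 was the other channel gene whose P5 groups were apart (2 of 51, or 3.92%, were apart and higher, against 3.45% of all genes, and none was apart and lower, against 2.73%). Its log2 fold change of 1.20 ± 0.33 was the largest among the channel genes at P5 and was not called (adjusted p = 0.325). In both groups its values were lower the higher the photoreceptor markers were, and with that term in the model the log2 fold change was 1.23 (adjusted p = 0.00271). Other markers moved with its groups as well: lens markers had a median log2 fold change of 1.87 and muscle markers of 0.92 between the P5 libraries labelled cKO and P5 WT. With the lens term the log2 fold change of Trpm5 was 0.68 (adjusted p = 0.558) and with the muscle term 0.80 (adjusted p = 0.568). The photoreceptor term also called Cacna1h higher in the P5 libraries labelled cKO (log2 fold change 0.70, adjusted p = 0.0202).

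**Figure D4:**
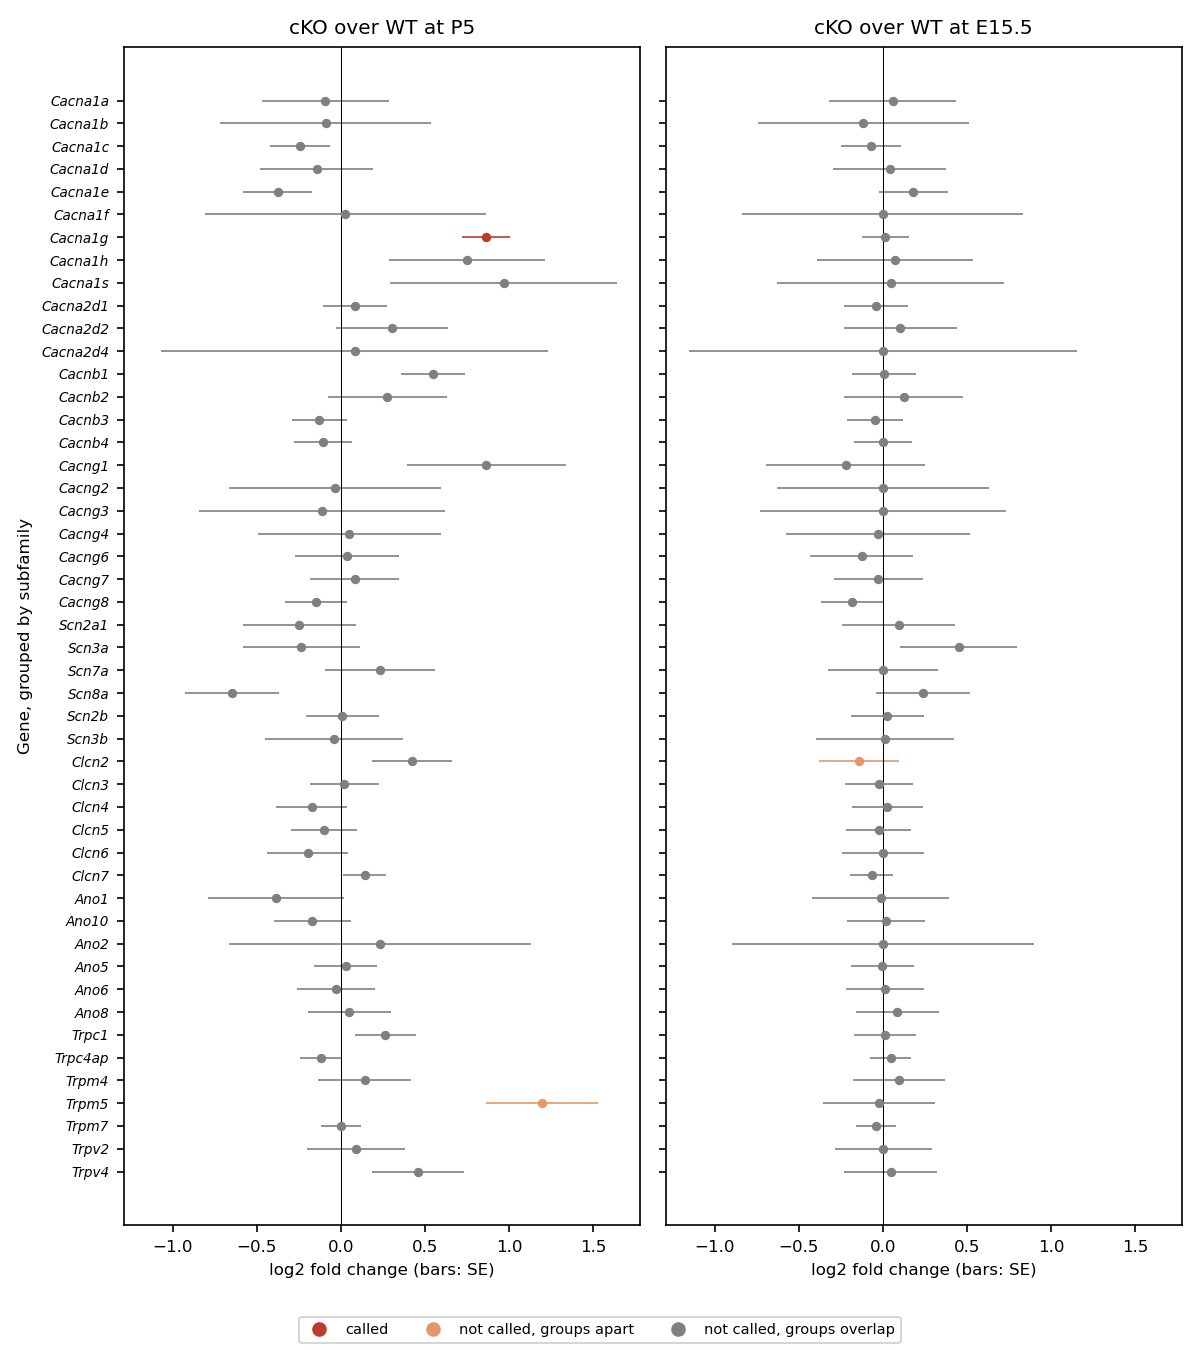
Points give the log2 fold change of libraries labelled cKO over WT for 48 channel genes at P5 (left) and E15.5 (right), bars the SE, and colour whether a gene was called or its 3 against 3 libraries did not overlap. Cacna1g is the called gene, Trpm5 at P5 and Clcn2 at E15.5 are apart without a call, and bars are widest for genes that vary widely among P5 libraries, such as Cacna2d4 and Ano2.

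No other channel gene was called between the genotypes at P5. Scn8a (-0.65 ± 0.28, adjusted p = 0.628) and Cacng1 (0.86 ± 0.47, adjusted p = 0.722) were not called. Fold changes of the channel genes had a median of 0.02, against -0.02 for all genes. In the interaction, which compares the genotype effect at P5 with that at E15.5, no channel gene was called higher (0.0518% of all genes were) or lower (0.00739%), while 3 had an unadjusted p under 0.05, as did 358 of all 13523 genes.

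Across the P5 libraries some channel genes varied with the photoreceptor markers and others hardly did, and the cause was not tested. The correlation of log2 values with the mean of these markers over 6 libraries was 0.179 for Cacna1g, 0.139 for Clcn2 and -0.187 for Clcn7. For Cacna2d4 it was 0.993 and for Ano6 -0.993. P5 WT replicate 3 had the highest value for 21 and the lowest for 19 of the 53 channel genes that varied at P5. Ties, as at the floor, count for each library that shares them. P5 WT replicate 1 had the lowest value for 18 and P5 cKO replicate 1 for 16, so the lowest values do not single out a library. The same was not counted over all genes, so nothing is read from these counts as a trait of channel genes. Cacna2d4, the alpha2delta subunit gene of photoreceptors, had 77.8, 1045 and 636 in the P5 libraries labelled cKO and 65.5, 290 and 2296 in the P5 WT libraries, with 50 in all E15.5 libraries. This is the order of the photoreceptor markers, from replicate 1 of both groups up to P5 WT replicate 3, and Ano2, Cacna1f, Cacng3 and Cacna1a had the same or nearly the same order. Ano6, Clcn5, Trpm4 and Ano1 had nearly the opposite order. These genes were picked after their values were seen, as were all those named that the rule for named genes does not cover. A fold change with age of Cacna2d4 (2.88 ± 1.15 in libraries labelled cKO and 2.80 ± 1.15 in WT) had so large an SE that it was not called (adjusted p = 0.0652 and 0.0785). Cacna1s and the untested Scn4a, of skeletal muscle, were highest in replicate 1 of both P5 groups, at 459 in the library labelled cKO and 329 in WT for Cacna1s and at 101 and 78.6 for Scn4a, which was at the floor in the other P5 libraries. Their order did not follow the muscle markers throughout: P5 cKO replicate 2, with a mean log2 value of 11.6 for these markers, had 142 for Cacna1s and 50 for Scn4a.

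**Figure D5:**
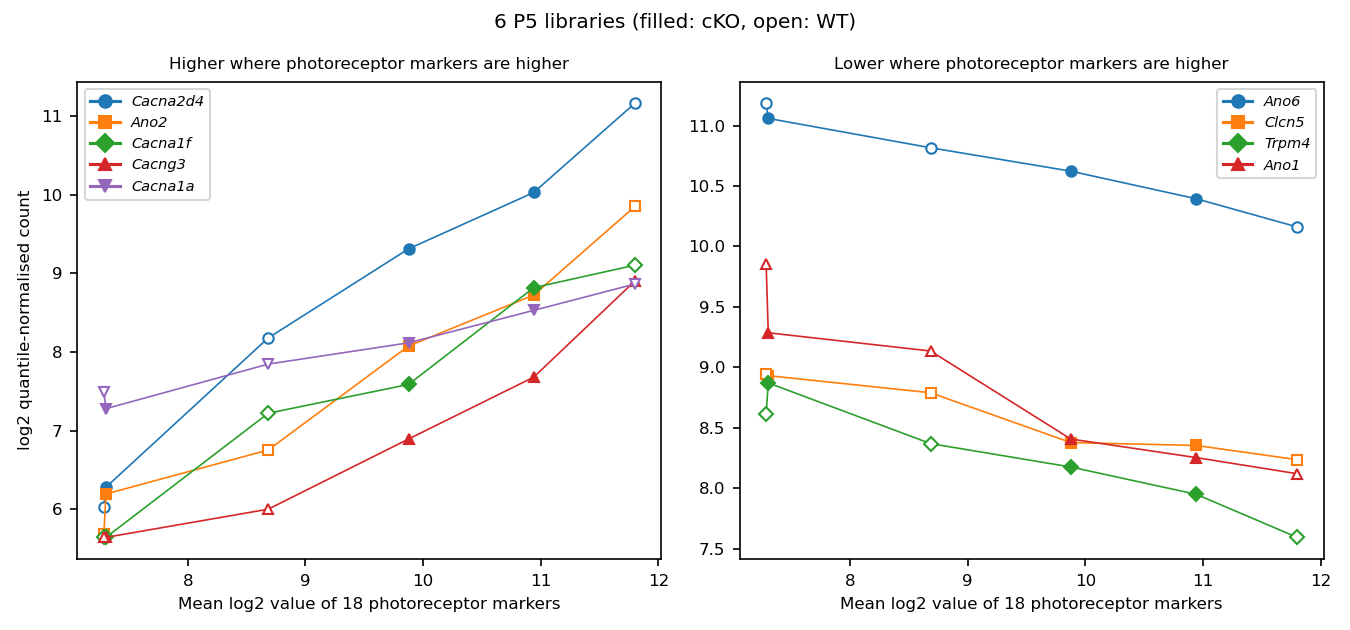
The x axis gives the mean log2 value of 18 photoreceptor markers in each of the 6 P5 libraries (filled, labelled cKO; open, WT), the y axis the log2 quantile-normalised count of 5 channel genes that were higher (left) and 4 that were lower (right) where the markers were higher. Cacna2d4 spans from 65.5 in P5 WT replicate 1 to 2296 in P5 WT replicate 3 on the linear scale, and lines join the libraries of 1 gene.

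Genes that work with these channels were followed in 6 lists. Their counts stand beside 17.6% rising and 26.1% falling with age over all genes tested in libraries labelled cKO and 15% and 23.2% in WT, and nothing particular to a list is read from them. Of pumps, exchangers and the mitochondrial uptake of calcium, 4 of 15 rose with age and 1 fell in libraries labelled cKO, and 3 rose and 1 fell in WT. Atp2b2, a calcium pump of the cell surface, averaged 1209 ± 418 in P5 libraries labelled cKO, against 106 ± 52.7 at E15.5 (log2 fold change 3.54), and 814 ± 199.5 in P5 WT, against 129 ± 39.7 at E15.5 (log2 fold change 2.67). Atp2a3, a pump of the endoplasmic reticulum, and Slc8a3, a sodium and calcium exchanger, also rose in both, and Mcu, the mitochondrial calcium uniporter, fell in both. Of store-operated entry and calcium release genes 3 of 13 rose and 1 fell in libraries labelled cKO, and 1 rose and 1 fell in WT, with the calcium release channel gene Itpr1 rising in both.

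Of other chloride channels and partners, 5 of 13 rose and 2 fell in libraries labelled cKO, and 5 rose and 1 fell in WT. Clic6, an intracellular chloride channel protein, averaged 4363 ± 925 in P5 libraries labelled cKO, against 463 ± 106 at E15.5 (log2 fold change 3.23), and 2955 ± 1489 in P5 WT, against 591 ± 145 at E15.5 (log2 fold change 2.18). In the TRP relatives 1 of 4 rose and 1 fell in each genotype. Mcoln1, the lysosomal cation channel, was up by 0.60 on the log2 scale in each, and Pkd2 was down by a log2 fold change of -0.52 in libraries labelled cKO and -0.53 in WT. Calcium channel partners gave 2 rises and 1 fall among 14 in libraries labelled cKO and 3 and 2 in WT, and Rrad, an inhibitor of calcium channels, fell in both.

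Sodium channel partners gave 1 rise and 1 fall among 7 in each genotype, namely Scnn1a and Ank2. Scnn1a, the alpha subunit of the epithelial sodium channel, was also the single gene of these lists called between the genotypes. It had 270.0, 276 and 372 in the P5 libraries labelled cKO and 110.2, 134 and 78.1 in P5 WT, a log2 fold change of 1.52 ± 0.22 (adjusted p = 0.0247) with no overlap. At E15.5 Scnn1a was near the floor in both groups, with 53.0, 56.3 and 72.3 in libraries labelled cKO and 53.9, 50 and 61.0 in WT.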

How the data were processed

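Poly(A) RNA of RPE was sequenced in 12 libraries, grouped by the titles' age, genotype and replicate number. TopHat2 2.0.10, HTSeq and the mm10 genome are named in the submitters' processing notes; the sources used here give neither strand setting nor depth. The deposited signal is the gene counts that the authors quantile-normalised with a floor of 50, as the table's name states: all 12 columns held the same sorted values, with 1376 (9.87%) at the floor and a median of 367.4, so no counting error can be attached.

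Values were taken as log2(value + 1). The 13523 of 13942 genes that exceeded the floor in 3 or more libraries entered a limma 3.58.1 model (R 4.3.3) of 1 mean per group, with a variance trend in eBayes, after tests on simulated data. A group at the floor shows no spread, so the pooled spread of such a gene can be too small and its p-values too low. The tests on simulated data do not remove this limit. P-values are two-sided, adjusted by Benjamini-Hochberg over all genes tested, and called under 0.05; a log2 fold change of a gene at the floor in a group is limited by it. Replicates may or may not be separate animals, so p-values measure the spread between libraries. Lengths and overlaps come from GENCODE release M21 (GRCm38), and promoters from RefSeq. Exons of 16 channel genes overlap another gene, mostly on the opposite strand.

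Named genes were those called by genotype, the largest called changes with age, the highest per kb of each subfamily and the 5 largest genotype changes at each age, with members known from RPE physiology; other members given values per library (Cacna2d2, Scn7a, Cacna1h, Cacna1f and Ano2) were chosen after their values were seen. Members, lists and tests were chosen with earlier results of these data known. The alternatives were other pseudocounts, filters, variance models, library weights, centrings, marker terms, a replicate block, the libraries of a contrast alone and each library left out; leaving out the 2 P5 libraries of highest photoreceptor signal was added after seeing the data. A few channel genes are counted in the totals but not reported individually here or drawn in the figures.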

Additional observations from a re-analysis of the deposited data

How the results depend on the processing

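Of 34 changes called for the named genes, 13 kept their call under all alternatives that tested them (27, or 26 for Scn2b and Trpc1), among them Cacna1g, Trpm5, Clcn2 and Trpv4 with age in WT and Clcn5, Scn2b and Trpc1 with age in both genotypes; 21 lost it under at least 1. At P5 the count of channel genes higher in libraries labelled cKO, 1 as reported, was 0 with a stricter floor filter, with a mean of at least 4 times the floor, without the variance trend, with the 6 libraries of the contrast alone, with the replicate block, with housekeeping centring, with the muscle term and without the 2 P5 libraries of highest photoreceptor signal, and 3 with the photoreceptor term. Rises with age in WT (9) were 20 with library weights, 14 with the photoreceptor term and 17 with the lens term, and falls (7) were 15 with weights, 18 with the photoreceptor term and 4 with housekeeping centring. Rises in libraries labelled cKO (10) were 17 with weights and 16 with the photoreceptor term, and falls (7) were 21 with the photoreceptor term and 3 with the lens term. The photoreceptor term separates the ages, so counts and fold changes with age under it extrapolate. With 1 library left out, the counts ran from 0 to 1 for P5 genotype, from 8 to 16 rises and 3 to 10 falls with age in libraries labelled cKO and from 7 to 13 rises and 5 to 10 falls in WT; the counts of 0 stayed at 0. Among values called with or without the setting, the sign turned with the photoreceptor term to positive for Ano1 (1.22) and Ano6 (0.68) in libraries labelled cKO and Ano6 (0.69) in WT, and to negative for Ano2 (-1.10), Cacna1f (-1.19), Cacna1h (-0.82) and Cacna2d2 (-0.060) in libraries labelled cKO and for Ano2 (-1.21), Cacna1f (-1.10), Cacna1h (-1.44) and Clcn4 (-0.018) in WT, and with the lens term to positive for Scn3b (0.23) in libraries labelled cKO; the cause was not tested. Housekeeping centring moved the median of all genes to -0.14 for genotype at P5 and to 0.12 for age in WT, where it turned 2028 rises and 3143 falls of all genes into 2553 and 1446. Deviations from the group means of same-numbered P5 libraries had correlations of 0.78, -0.30 and 0.19. With 3 libraries per group these cannot show whether replicate numbers pair the libraries. The replicate block, besides the P5 count, gave 11 rises and 6 falls in libraries labelled cKO and 7 and 7 in WT. The unknown depth and the floor limit what can be said of low genes.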
